A study of Homo sapiens with 6 samples.

Results

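Small nuclear RNA loci of the U families and of 7SK were examined in Kasumi-1, a human acute myeloid leukaemia cell line that carries the RUNX1-RUNX1T1 fusion. They were chosen by level, as all genes with a symbol starting with RNU, RNVU or RN7SK that had at least 1 FPKM (mapped fragments scaled by gene length and by library total) in at least 3 of the 6 libraries. This left 74 loci of the 527 with such symbols in the table, of 29810 genes in all and 11913 that met the same FPKM rule. By family there were 48 U6 loci, 7 U7, 6 U1, 5 7SK, 3 U6ATAC, 2 U4, 1 U2, 1 U5 and 1 U4ATAC. Of the 74, 71 are named as pseudogenes, and the 3 others are RNU6-8, RNVU1-1 and RNVU1-4.

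Cells were kept for 48 h with the agent I1 at 0.125 µM (3 libraries) or with control (3 libraries). The labels do not say what I1 is, what the control held or whether samples came from separate cultures, so a p-value here speaks of the spread among the 6 samples alone. The libraries came from a stranded kit that selects polyadenylated RNA. Whole reads could be recovered from the FPKM values, with library totals of 16391000 to 16948000 in I1 and 17331000 to 18204000 in Control. Myeloid progenitor markers were present, with KIT at a mean of 196 FPKM in I1 and 162 FPKM in Control, while the erythroid gene HBA1 was at 0 in all 6 libraries. Markers of other cells were not all absent. The epithelial marker EPCAM averaged 28.4 FPKM in I1 and 25 FPKM in Control, and the endothelial marker PECAM1 1.81 and 2.4 FPKM. Control library 1 stood apart from the other 5 on the first principal component of all tested genes, and it had 0 reads at 24 of the 74 loci, against 3 to 16 loci in each of the other 5 libraries.

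Spliceosomal small nuclear RNAs pair with the ends and branch site of introns: U1 with the 5′ splice site first, U2 with the branch point, and U6 then with the 5′ splice site as it joins with U4 and U5. U4ATAC and U6ATAC serve the minor spliceosome, U7 directs the 3′ end of histone mRNA, and 7SK holds the elongation factor P-TEFb inactive. Most of these RNAs lack a poly(A) tail, and the genome holds many copies of them that were scattered by retrotransposition and are thought to make no working RNA.

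The U6 loci on which the results turn are shown first. RNU6-213P (chr16:15877163-15877266, minus strand, hg38) is the locus past the limma threshold and met the FPKM rule through I1 alone, RNU6-322P (chr15:100551820-100551922, minus strand) had the most reads of the U6 loci, and RNU6-1016P (chr6:75644084-75644177, plus strand) is a well-covered locus with high values in I1. Capitals mark ACAGAGA, the stretch of U6 that pairs with the 5′ splice site. All sequences are GENCODE release 29 transcripts, 5′ to 3′ on the gene's strand.
RNU6-213P: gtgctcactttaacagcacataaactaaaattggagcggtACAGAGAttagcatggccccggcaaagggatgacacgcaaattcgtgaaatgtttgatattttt
RNU6-322P: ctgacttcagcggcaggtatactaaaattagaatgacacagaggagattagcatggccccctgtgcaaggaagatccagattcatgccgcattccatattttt
RNU6-1016P: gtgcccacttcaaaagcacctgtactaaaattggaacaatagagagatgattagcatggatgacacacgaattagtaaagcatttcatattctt

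ACAGAGA, searched on the gene's strand, stood in 25 of the 48 U6 loci that met the rule (52.1%), RNU6-213P among them, a share close to the 54.9% of the 308 U6 loci in the table and the 54.2% of the 1276 annotated. Its reverse complement stood in 0.627% of those annotated.

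For U1 and U7 the parent genes RNU1-1 (chr1:16514122-16514285, minus strand) and RNU7-1 (chr12:6943816-6943878, plus strand) are shown with the copies that had the highest fold changes in their families, RNU1-22P (chr16:3086143-3086300, plus strand) and RNU7-75P (chr5:37327135-37327196, plus strand). Capitals mark ACTTACCTG, the 5′ end of U1 that pairs with the 5′ splice site, AATTTGTGG, the binding site of U1 for the ring of Sm proteins, and AATTTGTCT, the matching site of U7.
RNU1-1: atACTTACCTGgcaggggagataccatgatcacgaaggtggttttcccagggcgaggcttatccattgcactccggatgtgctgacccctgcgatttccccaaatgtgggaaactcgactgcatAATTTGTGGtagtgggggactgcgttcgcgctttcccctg
RNU1-22P: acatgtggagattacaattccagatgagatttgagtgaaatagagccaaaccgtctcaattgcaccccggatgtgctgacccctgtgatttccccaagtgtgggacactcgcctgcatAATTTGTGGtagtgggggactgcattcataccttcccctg
RNU7-1: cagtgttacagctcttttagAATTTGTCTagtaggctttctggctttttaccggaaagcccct
RNU7-75P: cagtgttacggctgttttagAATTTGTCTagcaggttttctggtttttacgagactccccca

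RNU1-22P holds the Sm site but not ACTTACCTG in these letters. Among the 6 U1 loci, 5 held AATTTGTGG (43.9% of 132 annotated U1 loci) and 2 held ACTTACCTG (32.6%). AATTTGTCT stood in 6 of the 7 U7 loci, against 65.1% of 149 annotated.

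The level of the loci was low. A locus had a median of 18.5 reads over the 6 libraries, from 8 to 158, and a median length of 107 bases. At that length a single read is worth 0.513 to 0.570 FPKM, so 2 reads were enough to pass the rule in a library. RNU6-945P, just inside the rule, had a third-highest value of 1.03 FPKM, and RNVU1-1 one of 1.00 FPKM. RNU7-45P and RNU2-70P lay just outside it, at 0.968 and 0.967 FPKM. The rule was met unevenly by the groups: 6 loci passed through all 3 I1 libraries with no Control library at 1 FPKM, against 1 locus that passed through the 3 Control libraries alone. The 6 are RNU6-213P, RNU6-407P, RNU6-288P, RNU6-141P, RNU7-75P and RNU2-46P, and the 1 is RNU6-897P, all chosen for mention after their values were seen. Of the rest, 10 loci had 3 I1 and 2 Control libraries at 1 FPKM, 9 had 3 and 1, and 13 had 2 and 1. In the other direction 1 locus had 2 I1 and 3 Control libraries, 1 had 1 and 3, and 5 had 1 and 2. A locus that entered through one group had to be higher there, so counts over the 74 are given as description.

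Summed over all 527 loci, whether or not they met the rule, reads were higher in every I1 library than in any Control library. In RPM, reads scaled to the library total, the sums were 37.9, 44.1 and 50.8 in I1 (44.3 ± 6.45, SD, n = 3) and 21.5, 27.5 and 31.0 RPM in Control (26.7 ± 4.80, SD, n = 3), a ratio of means of 1.66. The 453 loci that did not meet the rule had 15.4, 19.4 and 22.7 RPM in I1 and 8.84, 12.8 and 12 in Control, a ratio of 1.71. The groups did not overlap there either.

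Other short or intronic RNA classes were also higher in I1, with smaller ratios. Small nucleolar and Cajal body RNAs, which guide the modification of ribosomal and small nuclear RNA, summed to a ratio of 1.27 over 261 genes. The other miscellaneous RNA genes, a class of short noncoding RNAs, summed to a ratio of 1.40 over 567 genes. The ratio was 1.19 over 434 microRNA genes and 1.28 over 555 sense intronic genes, which lie within introns on the strand of the host. Groups did not overlap in any of these classes. Their part in the result on the small nuclear RNA loci was not tested.

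**Figure D1:**
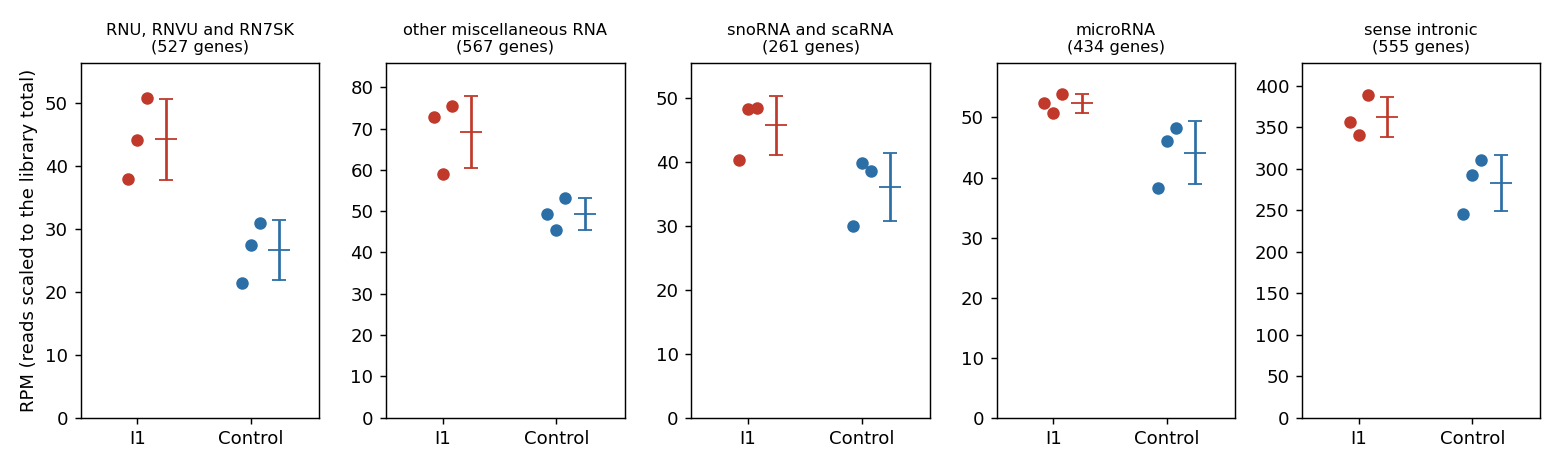
RPM, reads scaled to the library total (vertical axes, each from 0) summed over small nuclear RNA loci, other miscellaneous RNAs, small nucleolar and Cajal body RNAs, microRNAs and sense intronic genes. Points are the 3 libraries of I1 (left) and of Control (right), bars the mean and SD. All 3 I1 points lie above all 3 Control points in each panel, and the ratio of means is largest, 1.66, in the first.

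In limma across all 11913 tested genes, 1 of the 74 loci passed the threshold (Benjamini-Hochberg adjusted p under 0.05, with the log2 fold change 1 or more away from 0), against 0.0336% of all tested genes, 4 in number. It was RNU6-213P, one of the 6 loci that met the FPKM rule through I1 alone, so the rule had fixed its direction, and the call is given as a description. With no filter its adjusted p was 0.306. In the main fit 1 of 67 small nucleolar and Cajal body RNA genes also passed the threshold. So did 1 of 77 microRNA genes and 1 of 4 small nuclear RNA genes with other symbols. It was passed by 0 of 75 other miscellaneous RNA genes, 0 of 87 sense intronic genes and 0 of 9858 protein-coding genes. At an unadjusted p under 0.05 there were 19 of the 74 (25.7%), against 9.57% of all tested genes. The count was 10 (13.5%, against 10.4%) on recovered reads and 33 (44.6%, against 27.1%) with the replicate block. The 19 of the main fit held all 6 loci that met the FPKM rule through I1 alone. They also held RNU6-897P, which met it through Control alone. In all 3 numbered pairs I1 was higher at 26 loci, 35.1% against 32.1% of all tested genes. It was lower in all 3 pairs at 4 loci, 5.41% against 25.8%. The groups did not overlap in 16 loci with I1 higher, 21.6% against a background of 12.9%. They did not overlap in 1 locus with I1 lower, 1.35% against a background of 8.74%. The 16 include the 6 loci that met the rule through I1 alone, and the 1 is RNU6-897P. At these loci the rule itself kept the groups apart. Groups did not overlap, with I1 higher, in 20.7% of sense intronic genes and 16% of the other miscellaneous RNA genes tested. The share was 14.9% of small nucleolar and Cajal body RNA genes and 13% of microRNA genes. With I1 lower it was 2.3%, 5.33%, 1.49% and 1.3% of these classes, in that order. The log2 fold change was above 0 in 59 loci and below 0 in 15, with a median of 0.56, where all tested genes, most of them far longer, had a median of 0.03. Miscellaneous RNA genes other than these loci, an annotation class of like length that includes copies of 7SL and Y RNA, had a median of 0.48, with 59 of 75 above 0 and 26.7% at an unadjusted p under 0.05. The median was 0.26 for small nucleolar and Cajal body RNAs and 0.24 for sense intronic genes, of which 69 of 87 were above 0. It was 0.19 for microRNAs and 0.94 for the 4 small nuclear RNA genes with other symbols, all 4 above 0. Whether the loci differ from these classes was not tested. The 33 loci with at least 20 reads over the 6 libraries had a median of 0.59, with 25 above 0, and the 41 with fewer reads had a median of 0.55, with 34 above 0. Fold changes are on the log2(FPKM + 1) scale, which understates those of low genes.

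Family medians spanned both signs. Over the U6 loci the median log2 fold change was 0.58, with 40 above 0 and 8 below, and over the 7 U7 loci it was 0.61, with 6 above 0. The U6 median was 0.34 with a GC correction and 0.94 on recovered reads. The U7 median was 0.27 without Control library 1 and 0.95 without I1 library 1. The 6 U1 loci had a median of -0.09, which was -0.22 under quantile normalization, 0.18 with a pseudocount of 0.1 and 0.09 on recovered reads. It was also above 0 without Control library 1 (0.20), Control library 3 (0.10), I1 library 1 (0.06) or I1 library 2 (0.25). The 5 7SK loci had a median of 0.05, which was -0.04 under quantile normalization, -0.09 with a GC correction and 0.27 without Control library 3. Without U6, the median of the other 26 loci was 0.18. Differences between families were not tested.

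**Figure D2:**
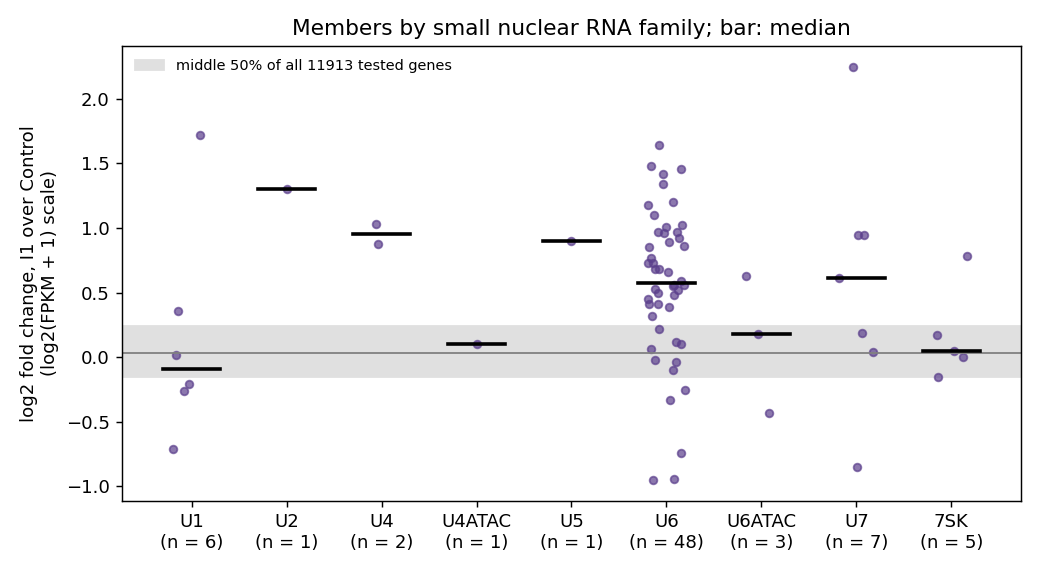
Log2 fold change of I1 over Control on the log2(FPKM + 1) scale (vertical axis) for each of the 74 loci, by family, with bars at the medians. The grey band holds the middle 50% of all 11913 tested genes and the grey line their median of 0.03; U6, with a median of 0.58, sits mostly above the band, and U1, with -0.09 and a sign that turned when any of 4 single libraries was left out, around it.

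U6, the catalytic RNA of the spliceosome, gave most of the reads. Over all 308 U6 loci in the table the sums were 22, 25.7 and 27.9 RPM in I1 and 10.5, 14.1 and 15.3 RPM in Control, a ratio of 1.89 with no overlap.

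RNU6-213P lies within an intron of FOPNL, a gene for a centrosomal and ciliary protein, on its strand. It had 4, 3 and 4 reads in I1 and 0, 0 and 0 in Control, or 2.12 ± 0.363 FPKM (SD, n = 3) in I1 with 0 FPKM in each Control library. Its log2 fold change was 1.64 (SE 0.164), with a limma adjusted p of 0.0353. The 95% exact lower limit of its depth-scaled read ratio was 2.67, for counting error alone. The locus has 11 reads in all and met the FPKM rule through I1 alone, so its difference was in part set by the rule. Leaving out Control library 1, 2 or 3 gave an adjusted p of 0.156, 0.0753 or 0.165, and leaving out I1 library 1, 2 or 3 gave 0.257, 0.123 or 0.290. Over all other settings the adjusted p lay between 0.0239 and 0.472, and it was 0.049 with the replicate block. FOPNL itself averaged 11.1 ± 0.570 FPKM in I1 and 7.99 ± 2.27 FPKM in Control, with a log2 fold change of 0.47 (limma adjusted p 0.467).

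RNU6-322P had 24, 48 and 36 reads in I1 and 7, 21 and 22 reads in Control. The groups did not overlap, though the lowest I1 library and the highest Control library differed by 2 reads. It averaged 20.9 ± 6.64 FPKM in I1 and 9.19 ± 4.73 FPKM in Control (SD, n = 3), with a log2 fold change of 1.20 (limma adjusted p 0.467). The depth-scaled ratio of its reads was 2.30, and its 95% exact interval, for counting error alone, ran from 1.63 to 3.29. It lies outside other genes, 1607 bases past the end of PRKXP1, a pseudogene of the kinase PRKX, whose log2 fold change was 0.16. RNU6-181P lies 8763 bases upstream of RNU6-322P on the same strand, in an intron of LINS1. That locus had 12, 10 and 24 reads in I1 and 1, 4 and 16 in Control, and the groups overlapped.

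RNU6-1016P, in an intron of SENP6, which encodes a SUMO protease, had 11, 19 and 27 reads in I1 and 3, 12 and 5 in Control. Only 1 Control library reached into the I1 range, and the log2 fold change was 1.46 (limma adjusted p 0.467). RNU6-1053P, in an intron of the vesicle-tethering gene TRAPPC11, had 27, 19 and 17 reads in I1 and 8, 24 and 11 in Control, a log2 fold change of 0.68. RNU6-510P, outside other genes, had 13, 14 and 18 reads in I1 and 10, 6 and 11 in Control, and its groups did not overlap (log2 fold change 0.73, limma adjusted p 0.467). RNU6-26P, in an intron of the membrane protein gene DCBLD2, had 4, 4 and 10 reads in I1 and 0, 2 and 1 in Control. Its log2 fold change of 1.48 had a limma adjusted p of 0.467, and its read ratio of 6.39 an interval of 1.87 to 33.9.

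RNU6-8 had 4, 6 and 4 reads in I1 and 0, 5 and 5 in Control. One other annotated transcript, RNU6-7, is identical to RNU6-8, so their reads could not be told apart if both were transcribed. Apart from Control library 1 the groups lay together, and the log2 fold change of 0.59 (limma adjusted p 0.547) was -0.04 without that library. RNU6-1095P, opposite an intron of UPF2, a gene of nonsense-mediated decay, had 9, 11 and 12 reads in I1 and 16, 8 and 14 in Control, with a log2 fold change of -0.10 that was 0.06 without Control library 1. RNU6-312P, which overlaps an exon of PPIL3, a spliceosome-associated isomerase gene, had 2, 4 and 0 reads in I1 and 8, 0 and 10 in Control (log2 fold change -0.74, limma adjusted p 0.602). RNU6-897P, which met the rule through Control alone, was the 1 locus with every I1 library below every Control library, with 0, 0 and 1 reads in I1 and 2, 3 and 2 in Control.

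**Figure D3:**
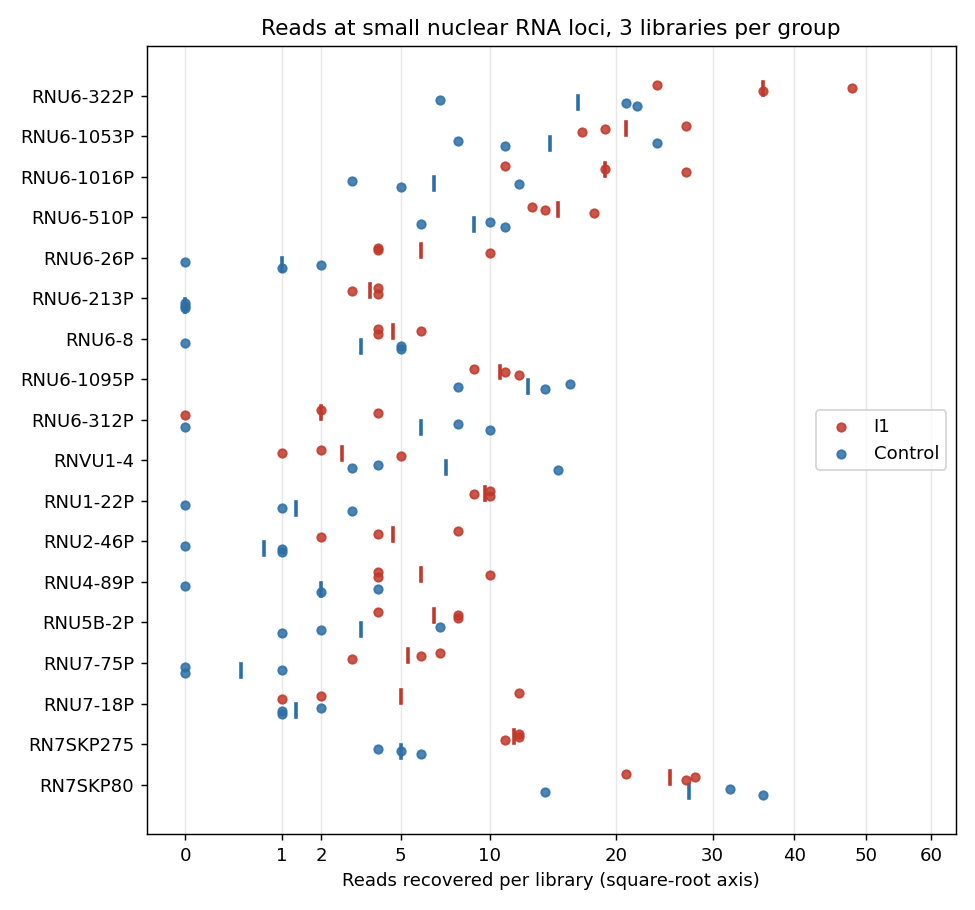
Reads recovered per library (horizontal axis, square-root scale) at 18 of the loci, with I1 above Control in each row, a point per library and a bar at the mean. I1 and Control do not overlap at RNU6-322P, RNU6-510P, RNU6-26P, RNU6-213P, RNU1-22P, RNU2-46P, RNU7-75P and RN7SKP275, and they lie together at RNU6-1095P and RN7SKP80.

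Among U1 loci, RNU1-22P had 10, 9 and 10 reads in I1 and 0, 1 and 3 in Control. The I1 libraries were close to each other and all above Control. It averaged 3.68 ± 0.275 FPKM in I1 and 0.480 ± 0.546 FPKM in Control, with a log2 fold change of 1.72 (limma adjusted p 0.188) and a read ratio of 7.72, interval 2.71 to 30.2. It lies opposite an intron of the noncoding gene AC108134.3, whose log2 fold change was -0.04. RNVU1-4, a variant U1 gene, had 2, 1 and 5 reads in I1 and 4, 3 and 15 in Control, lower in I1 in all 3 numbered pairs while the groups overlapped (log2 fold change -0.71, limma adjusted p 0.486). RNVU1-1, which is 96.3% identical to RNU1-1, had 2, 1 and 3 reads in I1 and 3, 0 and 4 in Control. RNU1-16P had 8, 0 and 5 reads in I1 and 8, 6 and 2 in Control, and RNU1-129P had 2, 5 and 7 in I1 and 9, 0 and 3 in Control. RNU1-106P had 2, 10 and 4 reads in I1 and 15, 1 and 8 in Control, so the groups overlapped at all 3. Over all 38 U1 loci the groups overlapped, with a ratio of 1.28.

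The remaining spliceosomal families had 1 to 3 loci each. RNU2-46P, a U2 copy opposite an intron of LINC00476 that also met the rule through I1 alone, had 8, 4 and 2 reads in I1 and 0, 1 and 1 in Control (log2 fold change 1.30, limma adjusted p 0.467). RNU4-89P, opposite an intron of the kinase gene PAK2, had 4, 10 and 4 reads in I1 and 0, 4 and 2 in Control. By FPKM its groups did not overlap, and the log2 fold change was 1.03 (limma adjusted p 0.467). RNU4-52P had 1, 4 and 9 reads in I1 and 0, 5 and 0 in Control. RNU5B-2P, a U5 copy, had 4, 8 and 8 reads in I1 and 7, 2 and 1 in Control, and its groups overlapped (log2 fold change 0.90, limma adjusted p 0.467). Over all loci of the family, U4 summed to a ratio of 1.91 with no overlap, while U2 (2.60) and U5 (1.41) overlapped.

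The minor spliceosome copies had few reads in both groups. RNU6ATAC24P had 1, 2 and 5 reads in I1 and 2, 4 and 8 in Control (log2 fold change -0.43, limma adjusted p 0.581). RNU6ATAC18P had 2, 3 and 3 reads in I1 and 0, 2 and 2 in Control, and RNU6ATAC36P had 2, 1 and 3 in I1 and 2, 1 and 2 in Control. RNU4ATAC18P had 4, 1 and 10 reads in I1 and 3, 6 and 3 in Control. All 15 U6ATAC loci summed to a ratio of 1.06.

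U7 copies are about 62 bases long, so that a single read is worth 0.886 to 0.984 FPKM there. RNU7-75P, opposite an intron of the nuclear pore gene NUP155, had 7, 6 and 3 reads in I1 and 0, 1 and 0 in Control. It met the FPKM rule through I1 alone, which put its I1 libraries above Control by construction. The log2 fold change was 2.25 (limma adjusted p 0.188), with a read ratio of 17 and an interval of 2.65 to 715. RNU7-18P, opposite an intron of the transferrin receptor gene TFRC, had 12, 2 and 1 reads in I1 and 2, 1 and 1 in Control, so its log2 fold change of 0.95 rests on I1 library 1. RNU7-20P had 0, 2 and 8 reads in I1 and 0, 1 and 3 in Control, and RNU7-3P had 0, 6 and 5 in I1 and 1, 2 and 0 in Control. All 35 U7 loci together had 2.07, 2.07 and 2.11 RPM in I1 and 0.494, 1.21 and 0.735 in Control, a ratio of 2.56 from 104 reads in I1 and 43 in Control.

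7SK copies are the longest, and their levels were mostly alike. RN7SKP80, in an intron of the pseudogene RRP7BP, had 21, 28 and 27 reads in I1 and 32, 14 and 36 in Control, a read ratio of 0.987 with an interval of 0.713 to 1.37. RN7SKP275 stood apart from the other 4, with 12, 12 and 11 reads in I1 and 4, 5 and 6 in Control. Its log2 fold change was 0.78 (limma adjusted p 0.465), its read ratio 2.49 with an interval of 1.32 to 4.90, and it lies opposite an intron of the kinase gene STK32B, whose log2 fold change was -0.01. RN7SKP287 had 9, 13 and 4 reads in I1 and 2, 12 and 10 in Control, and RN7SKP296 had 1, 8 and 14 in I1 and 4, 11 and 11 in Control. RN7SKP32 had 5, 2 and 9 reads in I1 and 7, 2 and 8 in Control. The 69 7SK loci summed to a ratio of 1.26 with overlap.

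Where the loci lie was looked at next, because reads from an unspliced host transcript would be counted at a copy on the same strand. Of the 74, 36 lay in introns of genes on the same strand, 28 opposite an intron, 9 outside other genes and 1 in an exon. The median log2 fold change was 0.49 for the first class, 0.69 for the second and 0.59 for the third. Summed over all loci, those within introns on the same strand had 18.4, 20.5 and 25.4 RPM in I1 and 9.72, 13.4 and 16.5 in Control. Those opposite an intron had 13.2, 14.9 and 14.4 in I1 and 6.26, 9.35 and 7.97 in Control, and those outside other genes had 5.73, 8.20 and 10 in I1 and 4.50, 4.56 and 5.31 in Control. The groups did not overlap in any of these 3 classes, with ratios of 1.62, 1.80 and 1.67. The sources used here do not give the counting's use of strand, so reads of a host and of a copy opposite to it may not have been separated.

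**Figure D4:**
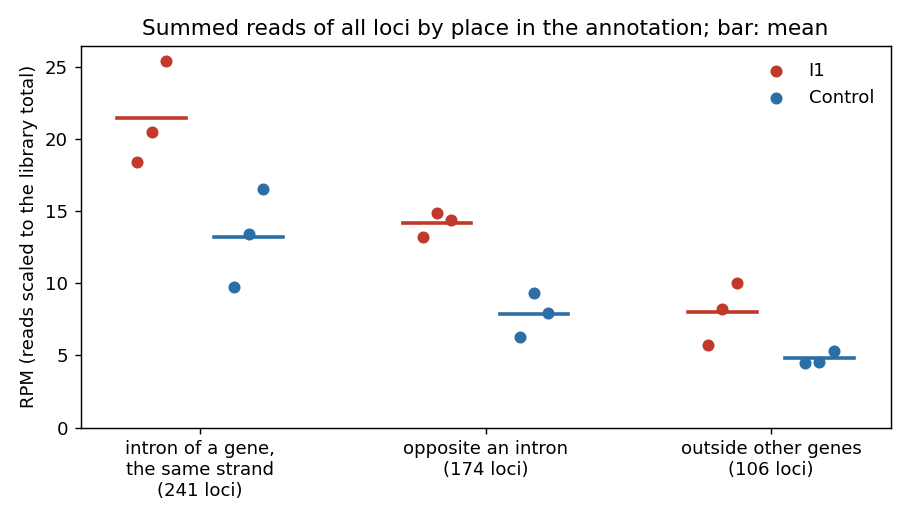
RPM, reads scaled to the library total (vertical axis, from 0) summed over all loci within an intron on the same strand, opposite an intron, and outside other genes. Each point is a library, I1 left of Control, and bars are means; I1 lies above Control in all 3 classes, with ratios of 1.62, 1.80 and 1.67.

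The host genes had a lower median than the loci they hold. Of 57 hosts tested, 0 passed the limma threshold and 6 had an unadjusted p under 0.05 (10.5%, against 9.57% of all tested genes), with a median log2 fold change of 0.19. I1 was higher in all 3 numbered pairs at 34 hosts, 59.6% against 32.1% of all tested genes, and the groups did not overlap with I1 higher at 14, 24.6% against 12.9%. With I1 lower in all 3 pairs there were 7 hosts, 12.3% against 25.8%. The groups did not overlap with I1 lower at 2, 3.51% against 8.74%. The rank correlation (Spearman) between the fold changes of a copy and its host was 0.271 over 31 copies on the same strand and 0.122 over 25 on the opposite strand. Reads at a copy and the mean FPKM of its host had a rank correlation of 0.0739 over 241 same-strand loci. These are descriptions across loci that share the 6 libraries.

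Base composition moved with the fold changes. The GC content had a median of 40.9% in the 74 loci and 47.9% in all tested genes, and across all tested genes its rank correlation with the log2 fold change was -0.753. Within the 74 loci it was -0.222, across loci that share the 6 libraries. Among tested genes the median GC content was 43.4% for sense intronic genes and 44.1% for the other miscellaneous RNAs. It was 46.5% for small nucleolar and Cajal body RNAs and 51.8% for microRNAs. The part of GC content in the result was not tested beyond a correction for it. With that correction the median of the loci was 0.31, in place of 0.56, and 0 loci passed the threshold.

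Genes that make, carry or use small nuclear RNAs were read from 12 lists. Of 161 tested genes, 0 passed the limma threshold against 0.0336% of all tested genes, and 14 had an unadjusted p under 0.05 (8.70%, against 9.57%). In 81 the log2 fold change was above 0 and in 80 below, with a median of 0.02. The 7 Sm core proteins, the ring on U1, U2, U4 and U5, had a median of 0.07, and the 7 LSm proteins that bind the 3′ end of U6 one of 0.06. Proteins of U1 and U2 had a median of -0.04 over 20 genes and those of the U4, U5 and U6 particle -0.11 over 21. The median was -0.01 over 21 genes of snRNA transcription by SNAPc and RNA polymerase III and 0.02 over 18 of the Integrator complex and snRNA 3′ processing. It was 0.20 over 17 genes of the nuclear exosome and RNA decay, 0.09 over 9 proteins of U7 and histone 3′ ends, and -0.02 over 8 replication-dependent histone genes, the targets of U7. Of 65 histone genes listed, these 8 met the FPKM rule. Apart from H2AC20 and H2BC12 their group means were at most 2.75 FPKM, in libraries that select polyadenylated RNA. Histone mRNA without a poly(A) tail would be largely missed there, so these values do not speak for U7 targets as a whole. For the U11 and U12 proteins the median was 0.12 over 8, for 7SK proteins and P-TEFb 0.16 over 6, and for the SMN complex with snRNP transport 0.05 over 20.

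The most abundant genes of these lists did not pass the test. SNRPB, an Sm core protein, averaged 87.7 ± 9.23 FPKM in I1 and 110 ± 9.53 FPKM in Control (SD, n = 3), a log2 fold change of -0.33 with a limma adjusted p of 0.467. SNRPD2, another of the ring, had a log2 fold change of 0.09. LSM2 and LSM7, which sit on U6, had -0.15 each. SF3B5, a U2 protein, averaged 152 ± 14.2 FPKM in I1 and 184 ± 0.475 FPKM in Control (log2 fold change -0.28, limma adjusted p 0.467), and SNRPC, a U1 protein, had a log2 fold change of -0.13. SNU13, which binds U4, had -0.16, and the helicase SNRNP200, which unwinds U4 from U6, -0.09.

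Among genes of synthesis and decay, MAF1, the repressor of RNA polymerase III, averaged 53.3 ± 2.87 FPKM in I1 and 65.8 ± 5.38 FPKM in Control (log2 fold change -0.30, limma adjusted p 0.467). The polymerase subunit POLR3C had a log2 fold change of -0.12. The Integrator subunits INTS1 and INTS13 had -0.26 and 0.31. MTREX, the helicase that feeds the nuclear exosome, had 0.25, and the exosome subunit EXOSC5 -0.29. MEPCE, which caps 7SK, averaged 52.6 ± 0.201 FPKM in I1 and 61.6 ± 5.20 FPKM in Control (log2 fold change -0.22, limma adjusted p 0.467), and HEXIM1, the inhibitor that 7SK carries, had a log2 fold change of -0.03. For the U7 pathway, SLBP, which binds the histone mRNA stem-loop, had -0.03 and the endonuclease CPSF3 0.09. The histone genes H2AC20 and H2BC12 had 0.47 and -0.25. Of the minor spliceosome, ZCRB1 had 0.41 and PDCD7 0.03, and of snRNP assembly STRAP had 0.08 and CLNS1A -0.06.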

How the data were processed

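RNA of 3 I1 and 3 Control samples of Kasumi-1 was sequenced, with a TruSeq Stranded mRNA kit per the labels' protocols. The authors deposited 1 table of FPKM values. Its title speaks of cells and an agent other than those in the labels, while its columns carry the titles of these 6 samples, and every value here rests on those column names. The submitters' processing notes name hg38 as the build and list HISAT2, HTSeq, Cufflinks and Trimmomatic, with no role, version or use of strand. Columns not used numbered 0.

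Since FPKM scales with the inverse of gene length, a handful of reads puts a short locus above 1 FPKM. With exon lengths of GENCODE release 29, 95.9% of 29703 matched genes gave whole reads in all libraries within 0.05 reads, including all 74 loci. Sums are given in RPM, on the library totals. Intervals (95%, exact) cover counting error only.

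The test was limma 3.58.1 (R 4.3.3) of I1 over Control with its trend option, on log2(FPKM + 1) of all genes that met the same FPKM rule as the loci, with Benjamini-Hochberg adjustment over 11913 genes, 2-sided. The fit was tested on simulated data, in which the changed genes had far more reads than these loci. Recovery of a change at the depth of the loci was not tested. Same-numbered samples deviated together (r of 0.476, 0.457 and 0.412), so the numbers in the titles were taken to pair the samples, and a fit with the replicate block was an alternative. The main fit left this pairing out, and adjusted p-values are from it unless stated. With the block the limma adjusted p was 0.0973 for RNU1-22P, 0.134 for RNU6-322P and 0.14 for RN7SKP275. For RNU6-213P it was 0.049. Identity was computed with Biopython 1.88.

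The loci, lists and tests were chosen with earlier results of these data known. Part of the U6 sequence comparison is not reported here. Loci named were those not named as pseudogenes, those called, per family the 4 with the most reads, and per family the 2 highest and 2 lowest by fold change among loci with at least 20 reads, and per partner list the 2 genes with the highest mean FPKM. RNU6-181P and RNU6-897P were chosen after their values were seen.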

Additional observations from a re-analysis of the deposited data

How the results depend on the processing

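The count of 1 locus past the threshold was the same with the replicate block, a constant prior variance, scaling by the median of ratios and a rule of a mean of at least 1 FPKM. It was 0 with a GC correction with or without the block, no filter, a pseudocount of 0.1 or 0.5, quantile normalization and recovered reads. It was also 0 when any 1 replicate was left out, and the cause was not tested. The count was 0 too at a mean of at least 5 FPKM and with a rule of at least 20 reads. Those rules left out RNU6-213P, with 11 reads in all and means of 2.12 FPKM in I1 and 0 in Control, so they could not count it. The median log2 fold change of the loci stayed above 0 throughout. It was 0.31 with the GC correction and also with the block added. With pseudocounts of 0.1 and 0.5 it was 1.15 and 0.70, and on recovered reads 0.87. At a mean of at least 5 FPKM, which left 7 of the loci, it was 0.73. Leaving out a replicate gave 0.41 to 0.62, the lowest without Control replicate 1. The U6 median was 0.34 with the GC correction, 0.45 under quantile normalization, 1.23 with a pseudocount of 0.1 and 0.94 on recovered reads. At a mean of at least 5 FPKM, which left 6 U6 loci, it was 0.97. The 7SK median ranged from -0.01 to 0.27 and the log2 ratio of the loci's share of reads, 0.70, from 0.57 to 0.88 when a replicate was left out. Partner lists gave 0 calls under each setting. The log2 fold change of RNU6-1095P ranged from -0.34 to 0.06 and that of RNU6-8 from -0.04 to 0.91 when a replicate was left out, and both turned round without Control replicate 1. Of the other values of single loci under these settings, 278 kept direction and side of the threshold, and 13, all of RNU6-213P, kept direction but not the threshold. At a median of 3 reads per library and locus, depth limits every single-locus comparison.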
